A study of Mus musculus with 10 samples.

Results

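Antisense transcripts are RNAs read from the strand opposite to another gene. The table of the mouse testis holds 30719 gene rows, of which 1588 carry the gene type antisense, and 277 of these averaged at least 1 CPM (the raw count over the library total, on the counts-per-million scale) over all 10 libraries. With Airn and Kcnq1ot1 set aside, 275 expressed antisense transcripts remained, and all of them were tested. The study compared whole testes of FXR-/- mice, which lack the bile acid receptor FXRα encoded by Nr1h4, with testes of wild-type (WT) mice, 5 libraries of each genotype. All mice were at postnatal day 10, when the tubules hold Sertoli cells, spermatogonia and the first cells in meiosis. Both genotypes are labelled as 50% 129sv and 50% C57Bl, followed by a number that differs in every sample. Per the design text each library came from an individual mouse and all were sequenced on 1 flowcell, and the part of Nr1h4 that was removed is not stated there or in the labels. Libraries are named here by the number in their titles, 8 to 12 for FXR-/- and 3, 4, 5, 6 and 9 for WT.

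Many antisense transcripts start beside the promoter of a protein-coding gene and run away from it, while others cross the exons of a gene read the other way. Some are known to act on their neighbour, by transcription through its promoter, by recruiting chromatin proteins or by pairing with its RNA, but most have no known function, and the nuclear exosome removes many soon after they are made. The testis is known for expressing more long noncoding RNAs than most other organs.

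Depth was 32330029 to 39655170 counts per library. Nr1h4 itself was at 0.236, 0.245, 0.278, 0.286 and 0.334 CPM in FXR-/- testes, against 0.452, 0.432, 0.407, 0.419 and 0.783 CPM in WT testes, with no overlap between the genotypes (log2 fold change -0.84 ± 0.23 SE, edgeR adjusted p = 0.0347). These and all later values by library are CPM scaled by TMM factors, in the order of the library numbers, and log2 fold changes are FXR-/- over WT. Of 18559 genes tested with edgeR's quasi-likelihood test, 2576 (13.9%) had an adjusted p under 0.05, 6.17% higher and 7.71% lower in FXR-/-. Among the marker lists, the 10 adipocyte markers summed to 200.4 to 1246 CPM in FXR-/- libraries and 51.1 to 196 CPM in WT libraries, with 8 of 10 higher. The 10 Sertoli cell markers summed to 2892 to 4093 CPM in FXR-/- and 4246 to 5247 CPM in WT libraries, with 8 of 10 lower, and no marker of either list was under 0.1 CPM. In whole testis, fewer cells of a type and less RNA per cell cannot be told apart. No gene of any marker list was the opposite-strand partner chosen, by the rule given below, for an expressed antisense transcript. Wt1os, named for the Sertoli marker Wt1, was paired with Gm11060 (0.140 CPM) instead.

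Positions came from GENCODE M21 (GRCm38, which is mm10), and 266 of the 275 transcripts were found there by their Ensembl identifier. That release still types 244 of them as antisense and 22 as something else, 5 of these as protein-coding (Gm4779, 5430417L22Rik, Btbd18, Toporsos and 1810010H24Rik). The transcripts were short, with a median exon length of 1668.5 bases and a median of 3 exons, and 39 had a single exon. They ranged from 1.002 to 132.5 CPM with a median of 1.99 CPM, so that 138 of them lay under 2 CPM and only 28 reached 10 CPM. Per kilobase of exon their median was 1.52 CPM, against 6.39 CPM per kilobase for all tested protein-coding genes. Together they took 0.133 to 0.143% of the counts of FXR-/- libraries and 0.125 to 0.138% of the counts of WT libraries, or 41198 to 54506 counts per library.

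The level threshold fell within a dense part of the list. Just inside it were 1700065D16Rik and RP23-315J23.3, each at 1.007 CPM, and Gm24362 at 1.002 CPM. Just outside were Lyrm7os at 0.990 CPM, F630028O10Rik at 0.983 CPM and Ift88os at 0.977 CPM. The transcripts were chosen on their mean level over both genotypes, so their levels are a description. The contrast itself was not a criterion, but a high level in 1 genotype can carry a transcript over the threshold. BC018473 averaged 1.179 CPM over all libraries and did not exceed 0.479 CPM in any WT library. For Emx2os and Gm20628 most WT libraries were also under 1 CPM.

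The library kit named in the labels, Illumina TruSeq RNA, does not mark the strand of a read, and whether strand was used in counting is not given in the sources used here. Reads from an antisense transcript and its partner therefore cannot be told apart where their exons overlap. Most exon sequence of the 266 placed transcripts was free of such overlap, with a median of 90.3% of exon bases outside the exons of any other gene, and 85 transcripts were fully free. This share counts annotated exons only, so an exon inside a partner's intron counts as free. Reads from unspliced RNA of the partner were not assessed. In 15 transcripts less than 50% of the exon bases were free, and of these only Phtf1os, with 37.0% free, changed with genotype. Across the whole table, 203 genes had no free exon base at all, and their median level was 0.0729 CPM, against 1.16 CPM for all rows.

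By position the transcripts fell into 4 arrangements. Of the 266, 81 were head-to-head, with a start within 1000 bases of the start of a gene on the other strand. In 32 of these the 5′ ends lay apart, and in others, such as Emx2os, they overlapped. A further 125 did not start this near their partner but overlapped its exons. Another 45 lay within or across a gene on the other strand without sharing exon bases. The other 15 neither overlapped an opposite-strand gene of the table nor started within 1000 bases of the start of one. Each transcript takes the class of its 1 chosen partner, a protein-coding gene before others and among these the one with the largest exon overlap, so that Phtf1os, whose start also lies within 1000 bases of that of Phtf1, is counted with exon overlap through Rsbn1. For 244 of the 251 with a partner, the partner was protein-coding. Per kilobase, 69 of 81 head-to-head transcripts, 105 of 125 with exon overlap and 25 of 45 with body overlap were less abundant than their partner. The transcripts' median level per kilobase was 1.43 CPM in the head-to-head arrangement, 1.40 CPM with exon overlap and 2.26 CPM with body overlap, while the partners' medians were 10.7, 8.75 and 7.65 CPM per kilobase in that order of arrangements.

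RefSeq promoter windows on GRCm38.p6, each 250 bases before to 50 bases after a start, were given for 124 of the transcripts and 198 of their partners. The 6 windows printed belong to called transcripts described below or to their partners. The 1810064F22Rik window (chr9:22213811-22214110, minus strand) and that of its partner Zfp872 (chr9:22187916-22188215, plus strand) lie far apart and point toward each other. Emx2 (chr19:59458440-59458739, plus strand) has its window printed because the annotated start of Emx2os, at position 59458635 on the minus strand, is base 196 of it. The BC051226 window (chr17:33909129-33909428, minus strand) shares 234 bases with that of Daxx, so both starts lie on 1 stretch of DNA. The windows of 1700034H15Rik (chr1:191907478-191907777, minus strand) and Slc30a1 (chr1:191906531-191906830, plus strand) flank a head-to-head pair whose first exons overlap. Each is written 5′ to 3′ on its own strand, and capitals mark matches on either strand to the GC box GGGCGG, the CCAAT box CCAAT or the TATA box TATAAA.
1810064F22Rik: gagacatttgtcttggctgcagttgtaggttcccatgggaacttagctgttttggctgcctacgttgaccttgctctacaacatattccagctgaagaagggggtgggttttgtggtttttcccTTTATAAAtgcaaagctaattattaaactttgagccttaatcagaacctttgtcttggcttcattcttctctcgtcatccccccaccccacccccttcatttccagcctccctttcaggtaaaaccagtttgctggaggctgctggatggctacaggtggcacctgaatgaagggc
Zfp872: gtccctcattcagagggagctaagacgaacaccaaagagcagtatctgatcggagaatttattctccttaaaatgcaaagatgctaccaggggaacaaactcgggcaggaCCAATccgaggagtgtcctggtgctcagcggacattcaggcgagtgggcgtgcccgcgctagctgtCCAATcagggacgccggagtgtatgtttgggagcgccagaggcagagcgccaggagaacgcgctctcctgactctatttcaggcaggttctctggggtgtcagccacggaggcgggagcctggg
Emx2: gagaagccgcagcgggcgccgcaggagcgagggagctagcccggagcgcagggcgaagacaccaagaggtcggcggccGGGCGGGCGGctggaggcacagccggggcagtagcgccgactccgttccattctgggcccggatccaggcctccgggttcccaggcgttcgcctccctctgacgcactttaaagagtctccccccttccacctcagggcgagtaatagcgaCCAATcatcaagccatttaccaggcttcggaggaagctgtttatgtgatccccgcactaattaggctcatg
BC051226: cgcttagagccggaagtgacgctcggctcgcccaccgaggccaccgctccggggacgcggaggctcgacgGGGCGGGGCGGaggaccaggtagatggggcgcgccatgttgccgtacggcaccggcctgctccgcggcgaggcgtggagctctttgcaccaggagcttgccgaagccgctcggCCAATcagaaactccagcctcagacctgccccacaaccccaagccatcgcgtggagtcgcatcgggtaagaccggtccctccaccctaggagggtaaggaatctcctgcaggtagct
1700034H15Rik: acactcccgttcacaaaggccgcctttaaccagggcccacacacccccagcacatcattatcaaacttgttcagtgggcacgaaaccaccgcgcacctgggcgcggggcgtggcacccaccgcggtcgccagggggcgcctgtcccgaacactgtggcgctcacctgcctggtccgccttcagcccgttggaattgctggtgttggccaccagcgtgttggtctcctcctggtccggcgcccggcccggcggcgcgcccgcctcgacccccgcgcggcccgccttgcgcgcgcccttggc
Slc30a1: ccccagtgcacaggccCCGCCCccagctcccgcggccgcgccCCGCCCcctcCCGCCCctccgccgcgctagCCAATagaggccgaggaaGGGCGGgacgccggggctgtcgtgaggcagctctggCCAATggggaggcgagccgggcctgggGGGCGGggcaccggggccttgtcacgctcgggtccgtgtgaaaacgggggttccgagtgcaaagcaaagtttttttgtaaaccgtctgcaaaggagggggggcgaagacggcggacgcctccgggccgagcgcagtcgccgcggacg

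The 1810064F22Rik window had a GC content of 47.7%, 2 CpG and overlapping TATA box matches on both strands, whereas the Zfp872 window held 17 CpG, 2 CCAAT boxes and no TATA box. The BC051226 and 1700034H15Rik windows were GC-rich (68.0% and 70.3% GC, with 31 and 33 CpG), as was that of Slc30a1 (73.0% GC, 36 CpG and 5 GC box matches), and that of Emx2 had 64.3% GC and 26 CpG. Over the 124 windows the median GC content was 60.7%, against 52.7% for all 32851 windows, and the ratio of observed to expected CpG was 0.60 against 0.38. The 44 head-to-head transcripts had a median of 65.2% GC and a CpG ratio of 0.79, the same ratio as the 198 partner windows. The other 80 had 55.2% GC and a ratio of 0.37, close to all windows.

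The GC box was present in 63.6% of head-to-head windows, 35.0% of the other windows and 35.7% of all windows. CCAAT was found in 35.5% of the 124 windows against 37.4% of all, and TATAAA in 7.26% against 13.6%. The E-box CACGTG was found in 9.68% against 7.15%, the cyclic AMP element TGACGTCA in 0.806% against 1.79%, and the NRF1 palindrome, GCGCA followed by its reverse complement, in 1.61% against 0.971%. The inverted repeat of AGGTCA and its reverse complement with 1 base between, the form of element that FXR is known to bind with its partner RXR, was in none of the 124 windows and in 3 of all windows (0.00913%). All motifs were searched on both strands, each counted on its own whatever other motif it overlapped. These are matches of letters within the windows only.

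Between the genotypes, 12 of the 275 antisense transcripts changed (4.36%, against 13.9% of all 18559 tested genes), 9 of them higher (3.27%, against 6.17% of all) and 3 lower (1.09%, against 7.71%) in FXR-/- testes. Of tested protein-coding genes 14.8% changed, and of lincRNAs (long noncoding RNAs from between genes) 8.09%. BC018473, Emx2os and 1810064F22Rik rose by log2 fold changes of 2.72, 1.24 and 1.02, and Gm15893 fell by 0.996. The remaining called transcripts were Gm11131, Gm20628, Gm14286, Phtf1os, 1700034H15Rik and 1500015A07Rik, which rose, and BC051226 and Gm15601, which fell. With library totals alone in place of TMM scaling 22 changed, 20 higher and 2 lower, with upper-quartile scaling 14, 12 higher and 2 lower, and with DESeq2's test 23, 16 higher and 7 lower. The calls over all genes moved too, from 2576 to 2704, 2549 and 3485 in that order. At an unadjusted p under 0.05 there were 42 antisense transcripts (15.3%), against 30.0% of all tested genes.

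**Figure D1:**
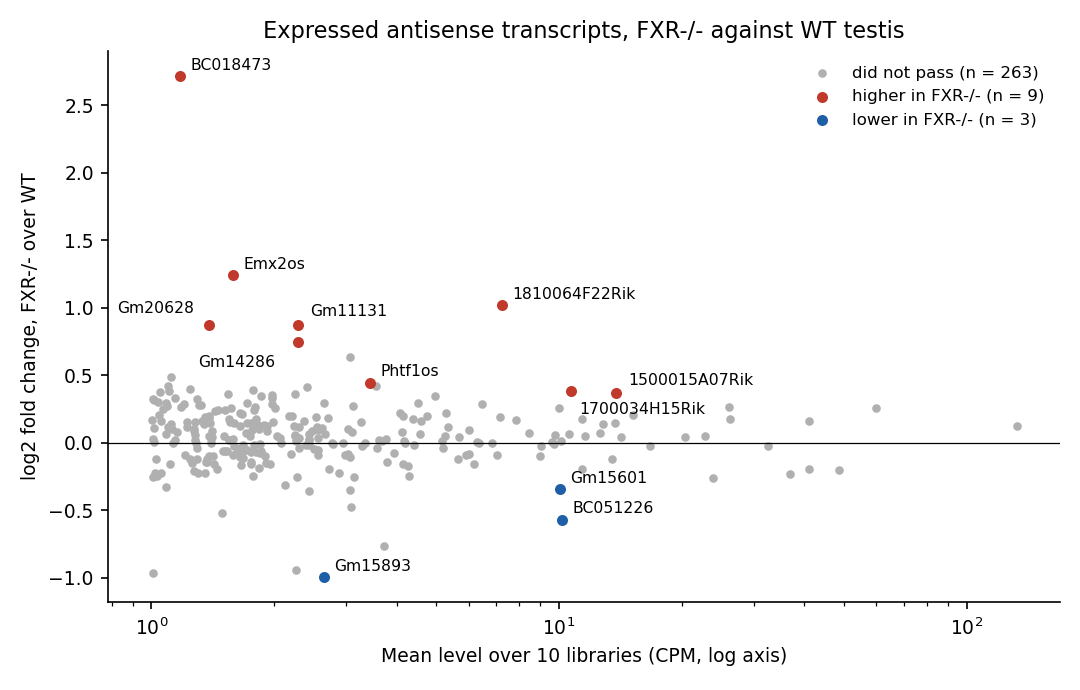
Each point is 1 of the 275 antisense transcripts, with its mean level over 10 libraries in CPM on a log axis and its log2 fold change, FXR-/- over WT. Red points (9) were higher and blue points (3) lower in FXR-/- at an adjusted p under 0.05, and the remaining 263 lie mostly within 0.5 of 0.

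Their median log2 fold change was 0.05, against 0.01 for all tested genes, and the middle 50% ran from -0.08 to 0.18, against -0.11 to 0.15 for all tested genes. Above 0 were 173 of 275 (62.9%, against 53.3% of all tested genes), and this share ran from 54.9 to 69.1% over the other scalings, tests and left-out libraries. Only 11 lay beyond 1.5-fold in either direction, and 7 of these passed the test. The libraries of the genotypes did not overlap for 20 transcripts (7.27%, against 11.6% of all tested genes), among them 10 of the 12 that changed.

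The median standard error of the log2 fold change was 0.143 for the antisense transcripts and 0.0923 for all tested genes, and it was smaller in the classes of higher level. Among transcripts at 1 to 2 CPM 3 of 138 changed (2.17%), against 6.1% of lincRNAs and 12.2% of protein-coding genes at that level. The standard errors there had medians of 0.160 for antisense transcripts, 0.162 for lincRNAs and 0.182 for protein-coding genes, while the median absolute log2 fold changes were 0.150, 0.161 and 0.249. At 2 to 5 CPM 4 of 83 antisense transcripts changed (4.82%), against 10.1% of lincRNAs and 17.2% of protein-coding genes. At 5 to 10 CPM it was 1 of 26 (3.85%), against 11.5% and 13.7%. From 10 to 150 CPM 4 of 28 changed (14.3%), against 15.0% of lincRNAs and 14.4% of protein-coding genes. These shares describe the classes, and the difference between classes was not tested.

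**Figure D2:**
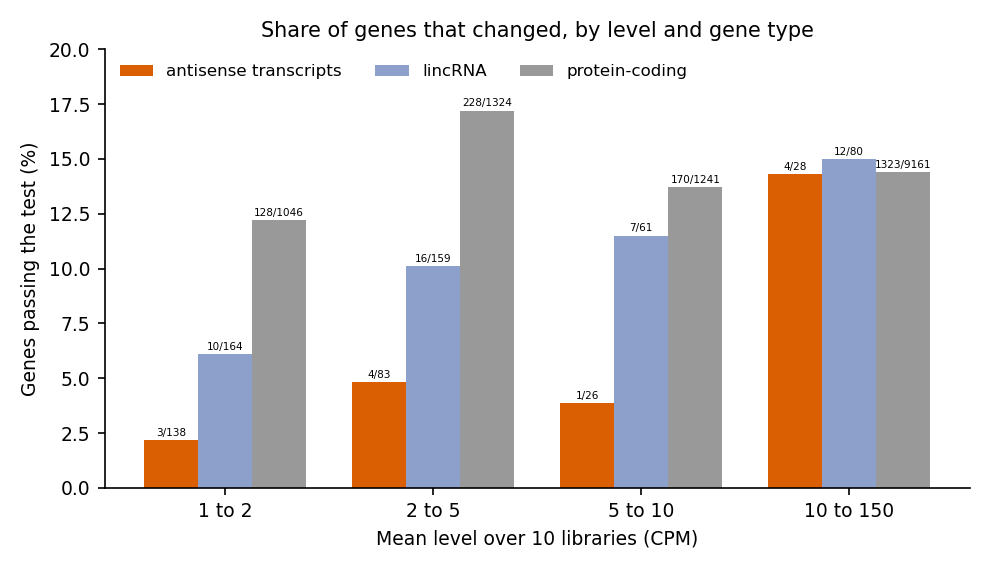
Bars give the percentage of genes with an adjusted p under 0.05 for antisense transcripts, lincRNAs and protein-coding genes, in bins of mean CPM over 10 libraries. The antisense bar is the shortest in the 3 lower bins (2.17%, 4.82% and 3.85%) and level with the others above 10 CPM (14.3%), and the figures on the bars are genes that passed over genes tested.

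The largest rise belonged to BC018473 (ENSMUSG00000056032, chromosome 11, 116752167 to 116759373, plus strand), a transcript of 5 exons whose exon bases are all free of other genes. It was at 1.47, 2.04, 1.67, 3.72 and 1.26 CPM in FXR-/- testes, against 0.241, 0.259, 0.282, 0.479 and 0.271 CPM in WT testes. The lowest FXR-/- library lay well above the highest WT library, and FXR-/- library 11 was the highest of all. The means were 2.03 ± 0.987 CPM in FXR-/- and 0.306 ± 0.0976 CPM in WT (SD, n = 5 each), a log2 fold change of 2.72 ± 0.34 SE (edgeR adjusted p = 0.000522). In M21 BC018473 neither overlapped an opposite-strand gene of the table nor started within 1000 bases of the start of one.

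Within 60 kb of BC018473, 2 genes were tested. St6galnac2, a sialyltransferase of O-linked sugar chains, was at 12.8, 22.5, 16.1, 28.8 and 16.7 CPM in FXR-/- testes, against 5.84, 7.94, 9.94, 8.62 and 8.13 CPM in WT testes, and rose (log2 fold change 1.26 ± 0.21 SE, edgeR adjusted p = 0.00312). Its genotypes did not overlap either, and library 11 was again the highest. The matrix-associated gene Mxra7 averaged 47.6 ± 8.22 CPM in FXR-/- and 60.5 ± 8.96 CPM in WT (SD, n = 5 each) and did not pass (edgeR adjusted p = 0.0740). The neighbours named here and below were chosen after their values were seen.

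Emx2os (ENSMUSG00000087095, chromosome 19, 59425104 to 59458635, minus strand) runs away from Emx2, a homeobox transcription factor needed to form the gonads, kidneys and genital ducts. In M21 the 2 transcripts share 264 exon bases at their starts, and 94.7% of the exon bases of Emx2os are free. The RefSeq start of Emx2 used for its window, 59458690, lies beyond the start of Emx2os, and from that start the 2 do not overlap. It was at 1.41, 1.47, 2.35, 3.59 and 2.29 CPM in FXR-/- testes, against 1.23, 0.978, 0.690, 0.957 and 0.844 CPM in WT testes. All FXR-/- libraries were above all WT libraries, by a narrow margin for library 8, and library 11 was the highest. The log2 fold change was 1.24 ± 0.26 SE (edgeR adjusted p = 0.0103).

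Emx2 moved with it, at 5.07, 6.20, 8.10, 11.5 and 8.32 CPM in FXR-/- testes, against 3.07, 3.51, 2.66, 2.75 and 2.02 CPM in WT testes. Library 11 was the highest and library 8 the lowest of its genotype for both genes, and Emx2 rose by a log2 fold change of 1.48 ± 0.21 SE (edgeR adjusted p = 0.00133). The change of Emx2os less that of Emx2 was -0.30 ± 0.15 SE on the log2 scale and did not pass (limma adjusted p = 0.254). The 8 markers of duct epithelium, all of them higher in FXR-/-, summed to 117, 112, 131, 166 and 133 CPM in FXR-/- testes, against 62.9, 80.3, 71.2, 82.2 and 73.1 CPM in WT testes. Library 11 was the highest FXR-/- library there too, while the lowest was library 9, not library 8 as for Emx2os and Emx2. The part of duct cells in the result for Emx2os, BC018473 or their neighbours was not tested.

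The lowest adjusted p among the antisense transcripts was that of 1810064F22Rik (ENSMUSG00000090925, chromosome 9, 22196963 to 22213860, minus strand), in a cluster of zinc finger genes. Its values were 9.99, 8.10, 9.24, 10.3 and 10.8 CPM in FXR-/- testes, against 4.82, 4.84, 4.83, 4.49 and 4.91 CPM in WT testes. The WT libraries were nearly level and every FXR-/- library was above 8 CPM. It rose 2.03-fold (log2 fold change 1.02 ± 0.09 SE, edgeR adjusted p = 2.67e-05).

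Zfp872, a zinc finger gene on the other strand whose window is printed above, overlaps 194 exon bases of 1810064F22Rik and went the other way. It was at 2.27, 2.20, 2.46, 2.94 and 2.80 CPM in FXR-/- testes, against 6.44, 6.94, 7.62, 8.32 and 7.35 CPM in WT testes. All FXR-/- libraries were below 3 CPM and all WT libraries above 6 CPM, a log2 fold change of -1.53 ± 0.11 SE (edgeR adjusted p = 4.90e-06). The change of 1810064F22Rik less that of Zfp872 was 2.52 ± 0.11 SE on the log2 scale (limma adjusted p = 1.74e-09), the largest among the pairs of the antisense transcripts. Reads in the 194 shared bases cannot be assigned to either strand, and 93.0% of the exon bases of 1810064F22Rik lie outside other exons.

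Of the 4 genes tested within 60 kb of 1810064F22Rik, 1 rose and 2, among them Zfp872, fell. Over all tested genes 6.17% were higher and 7.71% lower. Zfp599 averaged 5.10 ± 1.02 CPM in FXR-/- and 2.88 ± 0.50 CPM in WT and rose (log2 fold change 0.82, edgeR adjusted p = 0.00801). Pigyl, of the family that makes glycosylphosphatidylinositol anchors, averaged 17.3 ± 1.77 CPM in FXR-/- and 21.03 ± 1.57 CPM in WT and fell by 0.28 on the log2 scale (edgeR adjusted p = 0.0408). Zfp809, known in mouse for silencing retroviral DNA, averaged 19.6 ± 1.21 CPM in FXR-/- and 21.4 ± 0.872 CPM in WT and did not pass (edgeR adjusted p = 0.177). All are SD with n = 5 each.

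Gm11131 (ENSMUSG00000079505, chromosome 17, 35377021 to 35380292, minus strand) lies head-to-head with H2-Q4, a nonclassical class I histocompatibility gene, with 496 shared exon bases. It was at 3.98, 2.45, 2.35, 3.31 and 2.65 CPM in FXR-/- testes, against 1.54, 1.47, 2.04, 1.53 and 1.45 CPM in WT testes. The groups did not overlap, although WT library 5 came close to the lowest FXR-/- libraries, and the rise was 0.88 ± 0.17 SE on the log2 scale (edgeR adjusted p = 0.00703). H2-Q4 averaged 7.69 ± 1.03 CPM in FXR-/- and 6.59 ± 0.664 CPM in WT (SD, n = 5 each) and did not pass (edgeR adjusted p = 0.188). The difference between the pair's changes was 0.62 ± 0.16 SE (limma adjusted p = 0.0263), and it no longer passed without FXR-/- 8, FXR-/- 11, WT 4 or WT 9 (limma adjusted p = 0.0509 to 0.0733).

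Other class I genes beside Gm11131 rose as well. H2-Q1 was at 0.530, 1.47, 1.87, 2.11 and 2.18 CPM in FXR-/- testes, against 0.241, 0.345, 0.501, 0.449 and 0.271 CPM in WT testes (log2 fold change 2.18 ± 0.36 SE, edgeR adjusted p = 0.00322). H2-Q2 averaged 4.90 ± 0.980 CPM in FXR-/- and 2.82 ± 0.573 CPM in WT (SD, n = 5 each) and rose by 0.80 on the log2 scale (edgeR adjusted p = 0.00987). H2-Q5, H2-Q6 and H2-Q7 did not pass. Class I genes are near-identical copies in places, so the counting of reads with several alignments, not given in the sources used here, makes their values and that of Gm11131 uncertain.

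Gm20628 (ENSMUSG00000093656, chromosome 3, 96267075 to 96270289, minus strand) is a single exon of 3215 bases in a histone gene cluster, 72.0% of which is free of the exons of other genes. It was at 1.18, 1.957, 1.67, 2.21 and 1.93 CPM in FXR-/- testes, against 0.903, 1.01, 0.972, 0.927 and 1.09 CPM in WT testes. Library 8 was the lowest of its genotype but above every WT library, and the rise was 0.87 ± 0.17 SE on the log2 scale (edgeR adjusted p = 0.00677). Its head-to-head partner, named Hist2h2bb in the deposited counts, is the lincRNA Gm42743 in M21. That partner was barely counted, at 0.0220 CPM over all libraries, and was not tested. None of the 7 genes tested within 60 kb passed, Hist2h2be and Hist2h3c2 among them, where 13.9% of all tested genes did.

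Gm14286 (ENSMUSG00000087445, chromosome 2, 157544266 to 157545469, minus strand) is a short transcript of 464 exon bases. No opposite-strand gene of the table overlapped it or started within 1000 bases of its start. Gm14286 was at 2.77, 2.66, 2.99, 3.18 and 2.70 CPM in FXR-/- testes, against 1.896, 1.957, 1.72, 1.41 and 1.54 CPM in WT testes. Both groups were tight and far apart, with a rise of 0.75 ± 0.12 SE on the log2 scale (edgeR adjusted p = 0.00292). Of the 3 genes tested within 60 kb, 2 fell, 2410019O14Rik and Nnat, against 7.71% lower over all tested genes. The imprinted gene Nnat, which encodes the membrane protein neuronatin, averaged 22.7 ± 3.90 CPM in FXR-/- and 36.0 ± 1.83 CPM in WT (SD, n = 5 each) and fell by 0.67 on the log2 scale (edgeR adjusted p = 0.00185). Blcap, within which Nnat lies, averaged 43.4 ± 0.854 CPM in FXR-/- and 46.9 ± 0.789 CPM in WT and did not pass (edgeR adjusted p = 0.0545).

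**Figure D3:**
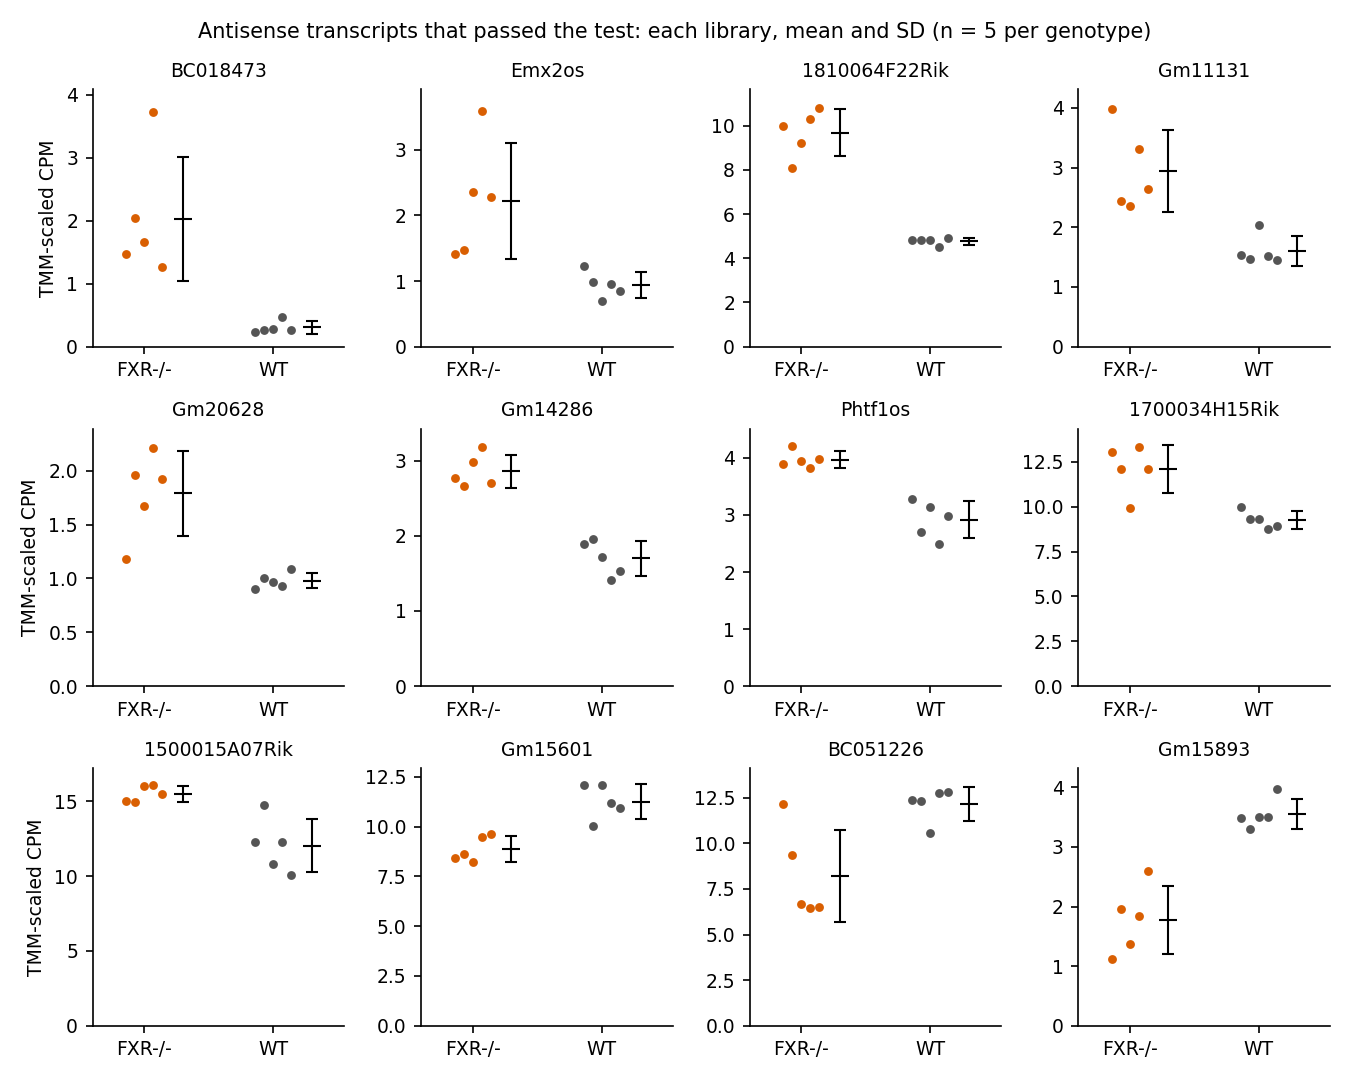
Each panel is 1 of the 12 antisense transcripts that passed, with TMM-scaled CPM per library (points, FXR-/- libraries 8 to 12 in orange and WT libraries 3, 4, 5, 6 and 9 in grey, in that order) and the mean with SD (bars, n = 5). The genotypes do not overlap in 10 panels, while in BC051226 and 1700034H15Rik at least 1 FXR-/- library lies within the WT range.

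The other 3 transcripts that rose did so by less than 1.5-fold. Phtf1os (ENSMUSG00000089998, chromosome 3, 103964536 to 103968581, minus strand) was at 3.89, 4.21, 3.95, 3.83 and 3.98 CPM in FXR-/- testes, against 3.28, 2.71, 3.13, 2.48 and 2.98 CPM in WT testes. The FXR-/- libraries were nearly level and all above WT (log2 fold change 0.45 ± 0.10 SE, edgeR adjusted p = 0.0137). Its single exon shares 2101 bases with Rsbn1, which averaged 36.0 ± 2.01 CPM in FXR-/- and 36.3 ± 1.30 CPM in WT (SD, n = 5 each) and did not pass (edgeR adjusted p = 0.880). The change of Phtf1os less that of Rsbn1 was 0.46 ± 0.11 SE (limma adjusted p = 0.0209), and it did not pass without WT 4 (limma adjusted p = 0.0530) or without FXR-/- 9 and 10 together (limma adjusted p = 0.0989). Phtf1, the putative homeodomain gene it is named for, averaged 59.2 ± 4.90 CPM in FXR-/- and 64.0 ± 5.74 CPM in WT and did not pass (edgeR adjusted p = 0.311).

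1700034H15Rik (ENSMUSG00000055833, chromosome 1, 191886130 to 191907527, minus strand) is a spliced transcript of 9 exons, head-to-head with the zinc exporter gene Slc30a1. It was at 13.1, 12.1, 9.92, 13.4 and 12.1 CPM in FXR-/- testes, against 9.99, 9.30, 9.34, 8.74 and 8.92 CPM in WT testes. FXR-/- library 10 lay within the WT range and the other 4 above it, with a rise of 0.39 ± 0.09 SE on the log2 scale (edgeR adjusted p = 0.0135). Slc30a1 averaged 85.5 ± 3.01 CPM in FXR-/- and 93.6 ± 7.04 CPM in WT (SD, n = 5 each) and did not pass (edgeR adjusted p = 0.126). The change of the antisense transcript less that of Slc30a1 was 0.51 ± 0.10 SE (limma adjusted p = 0.00584).

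1500015A07Rik (ENSMUSG00000098702, chromosome 18, 61726390 to 61735917, plus strand) shares 149 exon bases with Afap1l1, which encodes an actin-associated adaptor protein. It was at 15.0, 14.95, 16.0, 16.1 and 15.5 CPM in FXR-/- testes, against 12.3, 14.7, 10.8, 12.3 and 10.1 CPM in WT testes. The FXR-/- libraries were level and just above the highest WT library, 4 (log2 fold change 0.37 ± 0.09 SE, edgeR adjusted p = 0.0239). The call was lost without FXR-/- 11, FXR-/- 12 or WT 5 (edgeR adjusted p = 0.0603, 0.0509 and 0.0571). Afap1l1 averaged 20.6 ± 2.46 CPM in FXR-/- and 16.4 ± 2.39 CPM in WT (SD, n = 5 each) and did not pass (log2 fold change 0.33, edgeR adjusted p = 0.0654).

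Among the transcripts that fell, Gm15893 (ENSMUSG00000085246, chromosome 11, 88356291 to 88363947, plus strand) lies inside Msi2, a musashi RNA-binding protein gene, without sharing exon bases. It was at 1.12, 1.957, 1.37, 1.85 and 2.59 CPM in FXR-/- testes, against 3.49, 3.31, 3.51, 3.50 and 3.98 CPM in WT testes. The highest FXR-/- library, 12, was below every WT library, and the fall was to 0.501 of the WT level (log2 fold change -0.996 ± 0.189 SE, edgeR adjusted p = 0.00624). Msi2 was at 185, 190, 202, 183 and 179 CPM in FXR-/- testes, against 221, 216, 222, 199 and 232 CPM in WT testes, and fell by a smaller amount (log2 fold change -0.22 ± 0.05 SE, edgeR adjusted p = 0.0135). The difference between the changes was -0.82 ± 0.19 SE (limma adjusted p = 0.0162), and it did not pass without FXR-/- 9 and 10 together (limma adjusted p = 0.0540).

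BC051226 (ENSMUSG00000092564, chromosome 17, 33908044 to 33909317, minus strand) starts 97 bases from Daxx, a histone chaperone gene, and shares no exon base with it. Its values were 12.2, 9.35, 6.66, 6.43 and 6.50 CPM in FXR-/- testes, against 12.4, 12.3, 10.6, 12.7 and 12.8 CPM in WT testes. FXR-/- library 8 lay within the WT range, library 9 below it, and libraries 10, 11 and 12 far below it, at nearly 1 level. The log2 fold change was -0.57 ± 0.17 SE (edgeR adjusted p = 0.0431). Leaving out any 1 library except FXR-/- 8 ended the call (edgeR adjusted p = 0.0516 to 0.102), as did library totals alone or upper-quartile scaling in place of TMM (edgeR adjusted p = 0.0580 and 0.0501).

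Daxx did not split in this way, at 77.9, 82.9, 76.1, 70.8 and 72.8 CPM in FXR-/- testes, against 93.8, 93.2, 93.8, 90.5 and 94.3 CPM in WT testes. All its FXR-/- libraries were below all WT libraries (log2 fold change -0.29 ± 0.04 SE, edgeR adjusted p = 0.00217). The difference between the changes of BC051226 and Daxx, -0.32 ± 0.14 SE, did not pass (limma adjusted p = 0.178), while without FXR-/- 8 it was -0.46 and passed (limma adjusted p = 0.0109). Of the 14 genes tested within 60 kb, 4 fell, among them Daxx, and 1, Gm4134, rose, against 7.71% lower and 6.17% higher over all tested genes. Of those that fell, Tapbp, the tapasin gene of antigen loading, averaged 129 ± 10.7 CPM in FXR-/- and 168 ± 9.59 CPM in WT (SD, n = 5 each, edgeR adjusted p = 0.00261).

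Gm15601 (ENSMUSG00000085913, chromosome 14, 45563834 to 45598512, plus strand) shares 718 of its 4323 exon bases with Ddhd1, a phospholipase known to be needed for normal sperm in mouse. It was at 8.43, 8.65, 8.20, 9.48 and 9.63 CPM in FXR-/- testes, against 12.1, 10.0, 12.1, 11.2 and 10.9 CPM in WT testes. The groups did not overlap, and the fall was small (log2 fold change -0.34 ± 0.08 SE, edgeR adjusted p = 0.0154). Ddhd1 was at 72.1, 81.9, 70.4, 77.9 and 85.3 CPM in FXR-/- testes, against 115, 102, 128, 137 and 123 CPM in WT testes, and fell further (log2 fold change -0.64 ± 0.08 SE, edgeR adjusted p = 0.000405). The antisense transcript thus ended 0.30 ± 0.08 SE higher relative to its partner (limma adjusted p = 0.0332), a difference that did not pass in 8 of the 10 fits that each left out 1 library (limma adjusted p up to 0.0889).

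**Figure D4:**
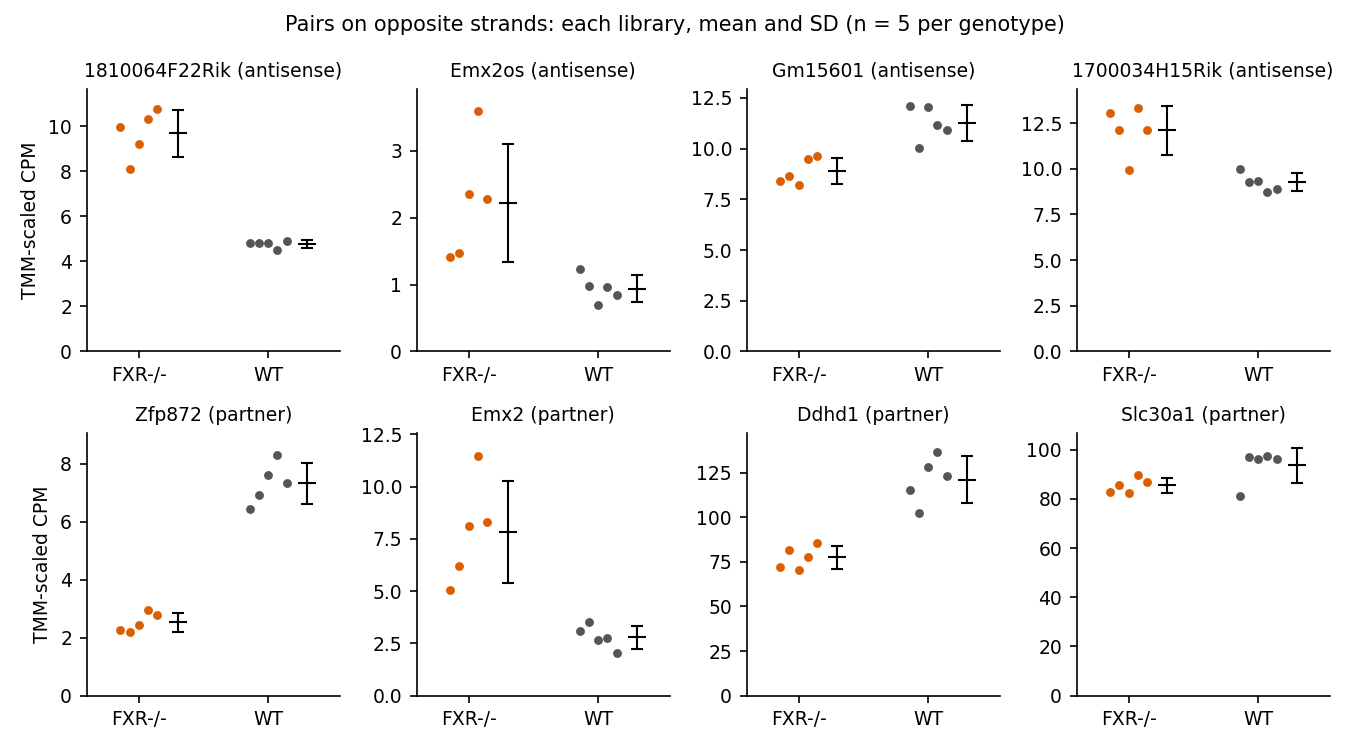
TMM-scaled CPM per library for 4 antisense transcripts (upper row) and their opposite-strand partners (lower row), FXR-/- left and WT right in each panel, with mean and SD (n = 5). 1810064F22Rik is higher and Zfp872 lower in FXR-/-, Emx2os and Emx2 are both higher, Gm15601 and Ddhd1 are both lower, and Slc30a1 did not pass where 1700034H15Rik did.

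Over all placed transcripts, 241 had a partner that was also tested. For 5 pairs both genes changed, 4 of them in the same direction, for 4 only the antisense transcript and for 25 only the partner. Of the 238 distinct partners 30 changed (12.6%, against 13.9% of all tested genes), 7 higher (2.94%, against 6.17%) and 23 lower (9.66%, against 7.71%). The log2 fold changes of antisense transcript and partner had the same sign in 55.6% of pairs, against 57.9% of all 3973 opposite-strand pairs of tested genes. Across the 241 pairs the Pearson correlation of the log2 fold changes was 0.21, against 0.28 across all 3973 pairs. These pairs share libraries, scaling and in places reads, so the correlations are descriptions across genes.

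By arrangement, the correlation was 0.59 (Spearman 0.29) for 79 head-to-head pairs, -0.08 (Spearman 0.18) for 121 pairs with exon overlap and 0.27 (Spearman 0.19) for 41 with body overlap. Emx2os among the head-to-head pairs and 1810064F22Rik among the exon overlaps lay far from the other pairs of their class. Head-to-head transcripts held 5 of the 12 calls (4 higher, 1 lower), exon overlaps 4 (3 higher, 1 lower), body overlaps 1 (lower) and transcripts with no partner 2 (higher). Of the 5 head-to-head calls, Gm20628 had a partner too low to be tested.

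**Figure D5:**
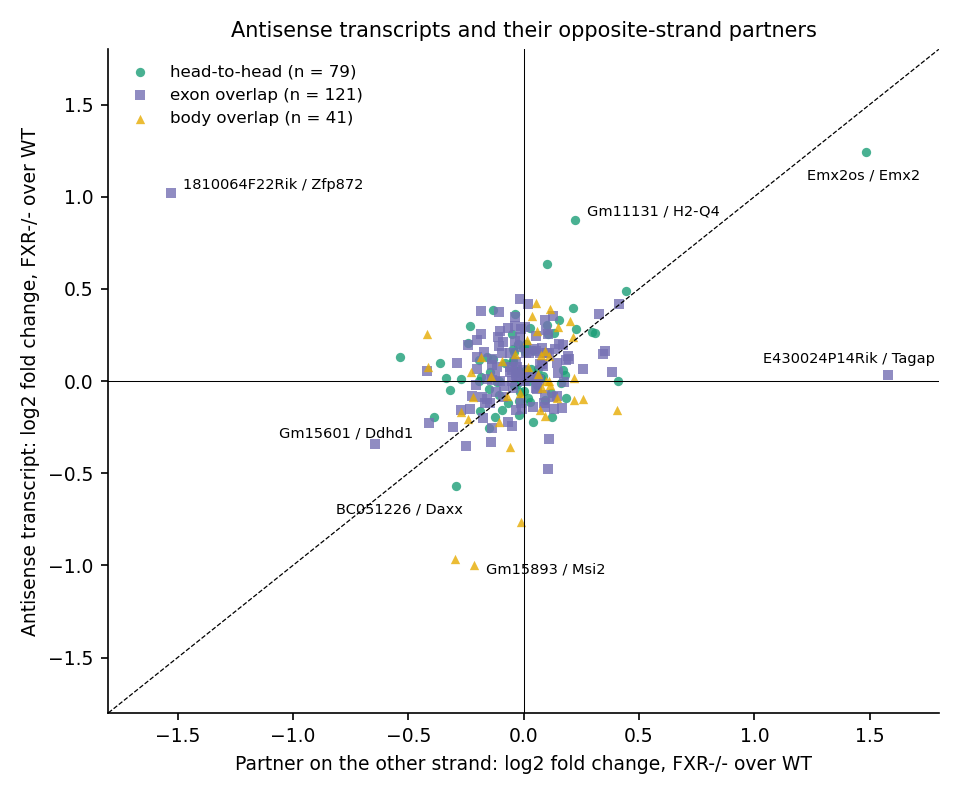
Each of the 241 points is an antisense transcript and its opposite-strand partner, with the partner's log2 fold change (FXR-/- over WT) on the horizontal axis and the antisense transcript's on the vertical axis. Marker shape gives the arrangement, and the dashed line marks equal change. Emx2os with Emx2 lies near the line at the upper right, and 1810064F22Rik with Zfp872 lies alone at the upper left.

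The change relative to the partner passed in 14 of 241 pairs (5.81%, against 8.96% of all 3973 pairs). In 11 the antisense transcript was higher in FXR-/- relative to its partner (4.56%) and in 3 lower (1.24%). Beside the pairs above, the 11 included Rab10os with Rab10, a small GTPase gene of vesicle transport. Rab10os averaged 43.4 ± 0.999 CPM in FXR-/- and 38.9 ± 3.09 CPM in WT, and Rab10 averaged 183 ± 11.0 CPM in FXR-/- and 206 ± 13.4 CPM in WT (SD, n = 5 each), and neither passed alone (edgeR adjusted p = 0.0706 and 0.0566). Rab10os passed alone with library totals (edgeR adjusted p = 0.0324), with DESeq2's test (adjusted p = 0.0441) and without WT 3 (edgeR adjusted p = 0.00981). The difference between their changes was 0.33 ± 0.07 SE on the log2 scale (limma adjusted p = 0.00705). The other 5, named because they passed, were Gm12963 with Col16a1 (0.51), 3110056K07Rik with Arid4a (0.45), 4930599N23Rik with Kdm7a (0.44), Gm15265 with Pi4kb (0.38) and 4632427E13Rik with Rab30 (0.35).

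Lower relative to their partners were Gm15893, Gm12359 with the exon junction gene Casc3 (-0.57) and E430024P14Rik with Tagap, a GTPase-activating protein gene of T cells. That last difference was -1.44 ± 0.20 SE on the log2 scale (limma adjusted p = 0.000600), with Tagap higher by 1.58 (edgeR adjusted p = 0.000732) and E430024P14Rik at 0.03 (edgeR adjusted p = 0.900). The number of pairs that passed was 9 without FXR-/- 11, 8 without FXR-/- 12 and 6 without WT 4.

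The most abundant antisense transcripts did not pass the test. Gm16586 (ENSMUSG00000089788, no position in M21) was at 113, 143, 143, 151 and 142 CPM in FXR-/- testes, against 147, 130.0, 122, 106 and 128 CPM in WT testes, with wide overlap (log2 fold change 0.13, edgeR adjusted p = 0.373). Dnm3os (ENSMUSG00000078190, chromosome 1, 162217623 to 162225550, plus strand), the host of microRNAs of the miR-199 and miR-214 families, was at 74.2, 60.9, 61.4, 66.3 and 63.5 CPM in FXR-/- testes, against 66.4, 58.3, 53.7, 49.8 and 45.0 CPM in WT testes. Its FXR-/- libraries tended to the higher side but overlapped WT library 3 (log2 fold change 0.26, edgeR adjusted p = 0.0921), and without WT 3 it passed (edgeR adjusted p = 0.0222). Dnm3, the dynamin gene around it, averaged 15.4 ± 3.06 CPM in FXR-/- and 20.7 ± 4.15 CPM in WT (SD, n = 5 each, edgeR adjusted p = 0.101).

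Brip1os averaged 45.4 ± 6.31 CPM in FXR-/- and 52.1 ± 1.17 CPM in WT (edgeR adjusted p = 0.114), with FXR-/- 8 the highest library of its genotype, and it passed without that library (edgeR adjusted p = 0.0122). Its partner Med13, a subunit of the Mediator kinase module, fell by 0.17 on the log2 scale (edgeR adjusted p = 0.0142). Gm4673 averaged 34.1 ± 3.12 CPM in FXR-/- and 39.9 ± 6.68 CPM in WT and did not pass (edgeR adjusted p = 0.165), while its partner Lsr, a lipoprotein receptor of tricellular junctions, fell by 0.41 (edgeR adjusted p = 0.0101). Gm15564 averaged 38.4 ± 3.11 CPM in FXR-/- and 43.8 ± 6.43 CPM in WT, and Gm16185 averaged 32.3 ± 8.76 CPM in FXR-/- and 32.7 ± 5.56 CPM in WT. Gt(ROSA)26Sor, the transcript of the Rosa26 locus used for transgenes, averaged 27.9 ± 1.93 CPM in FXR-/- and 24.7 ± 1.497 CPM in WT (edgeR adjusted p = 0.0882), and it passed with library totals (edgeR adjusted p = 0.0378) and without FXR-/- 8 (edgeR adjusted p = 0.0311). All are SD with n = 5 each, and none passed with TMM scaling and all libraries.

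Of 45 well-known antisense and related noncoding RNAs listed by name, 29 were in the table, and 8 were expressed antisense transcripts. Of the 8, 1 changed, Emx2os, against 13.9% of all tested genes and 4.36% of the expressed antisense transcripts. Wt1os was the highest of them after Dnm3os, at 14.9, 17.4, 18.5, 16.4 and 15.8 CPM in FXR-/- testes, against 19.0, 17.3, 16.3, 14.8 and 16.8 CPM in WT testes, and the groups overlapped throughout (log2 fold change -0.02 with a 95% interval of -0.18 to 0.14). Rab26os averaged 6.22 ± 0.557 CPM in FXR-/- and 5.82 ± 0.714 CPM in WT. Hoxd3os1, in the HoxD cluster, averaged 2.66 ± 0.320 CPM in FXR-/- and 2.46 ± 0.319 CPM in WT. Nespas, the imprinted antisense transcript of the Gnas locus, averaged 2.19 ± 0.302 CPM in FXR-/- and 1.83 ± 0.420 CPM in WT.

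Dlx1as, opposite the homeobox gene Dlx1, averaged 1.81 ± 0.313 CPM in FXR-/- and 2.01 ± 0.274 CPM in WT. Zeb2os averaged 1.19 ± 0.206 CPM in FXR-/- and 1.33 ± 0.120 CPM in WT (all SD, n = 5 each), and its partner Zeb2, a repressor of epithelial genes, fell by 0.23 on the log2 scale (edgeR adjusted p = 0.0338). A further 8 listed transcripts were typed as antisense but lay under 1 CPM, among them Tsix, the antisense transcript of the X-inactivation locus, at 0.0949 CPM. The other 13 carry another gene type in the table.

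Transcripts varied within a genotype as well. The 4 transcripts beyond 1.5-fold that did not pass include 3 of the most variable, 4930565N06Rik, A630077J23Rik and 2410021H03Rik (its name in M21), named after their values were seen. 4930565N06Rik was at 1.36, 2.69, 1.87, 3.20 and 4.73 CPM in FXR-/- testes, against 2.11, 2.39, 2.23, 8.56 and 8.32 CPM in WT testes, so that WT libraries 6 and 9 stood apart from the other 3 (edgeR adjusted p = 0.299). A630077J23Rik was at 0.472, 2.66, 1.44, 1.74 and 1.46 CPM in FXR-/- testes, against 2.92, 2.73, 2.60, 2.39 and 4.40 CPM in WT testes (edgeR adjusted p = 0.0722). 2410021H03Rik was at 0.265, 0.680, 0.456, 0.859 and 1.16 CPM in FXR-/- testes, against 1.11, 0.892, 1.19, 1.89 and 1.66 CPM in WT testes (edgeR adjusted p = 0.0708). With DESeq2's test A630077J23Rik and 2410021H03Rik passed. In edgeR A630077J23Rik also passed without FXR-/- 9, alone or together with FXR-/- 10, and 2410021H03Rik without FXR-/- 12. FXR-/- library 8 was the lowest in all 3. Over all 275 transcripts it was the lowest of its genotype for 99, and WT library 6 the lowest of its genotype for 84.

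The meiotic prophase markers summed to 914, 1034, 1054, 1356 and 1568 CPM in FXR-/- testes, against 595, 846, 1185, 1425 and 1272 CPM in WT testes, and none of the 9 tested passed. FXR-/- library 8 and WT library 3 were thus the lowest of their genotypes in that sum. Its part in the spread of the transcripts was not tested.

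Genes that remove or bind such RNAs were listed by name. Of 31 tested genes of the nuclear exosome and of noncoding transcript turnover, 2 rose, 4 fell and 25 did not pass, against 6.17% higher and 7.71% lower of all tested genes, with a median log2 fold change of 0.01, as for all tested genes. Upf1, the helicase of nonsense-mediated decay, averaged 178 ± 7.35 CPM in FXR-/- and 148 ± 9.13 CPM in WT and rose by 0.26 on the log2 scale (edgeR adjusted p = 0.00577). Rbm7, an RNA-binding subunit of the nuclear exosome targeting complex, averaged 90.6 ± 1.64 CPM in FXR-/- and 81.1 ± 2.69 CPM in WT and rose by 0.16 (edgeR adjusted p = 0.0136). Exosc9, a core subunit of the exosome, averaged 29.2 ± 2.16 CPM in FXR-/- and 35.2 ± 2.87 CPM in WT and fell by 0.27 (edgeR adjusted p = 0.0249). The exonuclease genes Dis3l and Dis3l2 fell by 0.22 and 0.16, and the decay endonuclease gene Smg6 by 0.17 (edgeR adjusted p = 0.0389, 0.0470 and 0.0471). Only 3 of the 31 passed under upper-quartile scaling, with library totals alone or with no filter on low counts.

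Of 20 tested genes that bind or cut double-stranded RNA, none rose, 3 fell and 17 did not pass, against 6.17% higher and 7.71% lower of all tested genes, with a median log2 fold change of 0.01. Ago2, the slicing Argonaute, averaged 101 ± 5.195 CPM in FXR-/- and 123 ± 8.64 CPM in WT and fell by 0.28 on the log2 scale (edgeR adjusted p = 0.00673). Eif2ak2, the kinase PKR, averaged 35.4 ± 1.60 CPM in FXR-/- and 42.7 ± 3.53 CPM in WT and fell by 0.27 (edgeR adjusted p = 0.0135). Ifih1, the sensor MDA5, averaged 8.78 ± 1.59 CPM in FXR-/- and 11.5 ± 0.71 CPM in WT and fell by 0.39 (edgeR adjusted p = 0.0394). All are SD with n = 5 each. With DESeq2's test 7 of the 20 passed, and over all genes the calls rose there from 2576 to 3485.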

How the data were processed

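Whole-testis RNA of 10 mice was measured, 5 FXR-/- and 5 WT, grouped by the genotype in the labels. Per the labels' protocols, libraries were made from Trizol-extracted RNA with the Illumina TruSeq RNA Sample Prep kit. Per the submitters' processing notes, FastQC 0.10.1, CASAVA, Bowtie, TopHat2 2.0.10, Bowtie2 2.1.0 and the build mm10 were used, with no role given. How reads were counted, on which annotation, with or without strand, and with what rule for multiple alignments is not given in the sources used here. As deposited, the table holds the authors' raw read counts per gene, and the normalized values beside them were not used here. Depth was 32330029 to 39655170 counts per library, and p-values measure the spread between mice.

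After filterByExpr and TMM scaling, edgeR 4.0.16 in R 4.3.3 tested all genes left (quasi-likelihood F-test, two-sided, genotype as the only term, Benjamini-Hochberg adjustment over 18559 genes, threshold 0.05). SE is the log2 fold change over the root of its F statistic. Differences between a transcript and its partner were tested with limma 3.58.1 on the difference in log2 CPM (prior count 2), adjusted over 3973 pairs. A partner is the gene on the other strand, protein-coding first, with the largest exon overlap, otherwise the nearest start within 1000 bases. Named are the called transcripts, the 8 most abundant, those of a list of known antisense RNAs, the 3 on each side of 1 CPM, and the partners of these. The members and all lists were chosen with earlier results of these data known. Gene positions came from GENCODE M21, where 30212 of 30719 rows matched. The alternatives were other scalings, DESeq2 1.42.0, limma-voom, no filter, other level thresholds, other prior counts, another choice of partner and each library left out. The tests were tried on simulated data.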

Additional observations from a re-analysis of the deposited data

Results flagged for a closer look

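Among 58 groups of 5 libraries (29 named transcripts in 2 genotypes), 6 held a library far from the other 4, by the ratio of its gap to the range, with a critical value of 0.71; chance flags about 1 in 20 groups. BC018473 was at 0.479 CPM in WT library 6, against 0.241 to 0.282 CPM in the other WT libraries, and Gm11131 at 2.04 CPM in WT library 5, against 1.45 to 1.54 CPM. 1810064F22Rik was at 4.49 CPM in WT library 6, against 4.82 to 4.91 CPM, and BC051226 at 10.6 CPM in WT library 5, against 12.3 to 12.8 CPM. Gm16586 was at 113 CPM in FXR-/- library 8, against 142 to 151 CPM in the other FXR-/- libraries, and Nespas at 2.72 CPM in FXR-/- library 12, against 1.999 to 2.12 CPM.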

How the results depend on the processing

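Across 17 alternatives to the test, filter, scaling or libraries, 9 of the 12 called transcripts kept their call in every one, and BC051226, 1500015A07Rik and Gm15601 did not. The count of 12 (9 higher, 3 lower) was 22 (20 higher) with library totals alone, 23 (16 higher, 7 lower) with DESeq2's test, 24 of 438 with membership at 0.5 CPM, and 10 to 16 with 1 library left out (8 to 12 higher, 2 to 4 lower). It was 10 without FXR-/- 9 and 10, the FXR-/- libraries with the highest adipocyte sums, and Gm15601, 1500015A07Rik and BC051226 then did not pass (adjusted p = 0.0609, 0.0644 and 0.0991). Over all genes the 2576 calls became 1427 to 2867 with 1 library left out, 1427 without FXR-/- 11, 1635 without FXR-/- 12 and 1601 without WT 4. They became 2704 with library totals alone, 2549 with upper-quartile scaling, 3485 with DESeq2's test and 2293 with no filter. The 14 pair differences became 6 to 18. For the exosome list 6 calls became 3 with upper-quartile scaling, library totals or no filter, and 2 to 6 with 1 library left out. For the double-stranded RNA list 3 calls became 7 with DESeq2's test, 5 without FXR-/- 9 and 10, and 2 to 4 with 1 library left out.

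Of 628 values of named transcripts under the alternatives, 573 kept direction and side of the threshold, 33 lost and 8 gained significance, and 14 changed sign, in 4 transcripts that did not pass and 1 pair difference that did not pass. Gm16185 (-0.02) became 0.0164 with library totals, 0.0638 without FXR-/- 9 and 10, and -0.12 to 0.10 with 1 library left out. Wt1os (-0.02) became 0.0156 with library totals and -0.0644 to 0.0261 with 1 library left out, and Hoxd3os1 (0.11) became -0.0017 without FXR-/- 9 and 10. 1700065D16Rik (0.03) ran from -0.0707 to 0.0985, and the pair difference of 1500015A07Rik (0.05) from -0.0077 to 0.12, with 1 library left out. The causes were not tested. Depth limits transcripts at 1 to 2 CPM, whose median standard error was 0.160 on the log2 scale, and the lowest count of any transcript in a library was 8. No paired analysis was possible because the genotypes share only the number 9 in their titles. The pair fit without FXR-/- 9 and 10 was chosen after seeing the data.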
